A study of Homo sapiens with 2 samples.

Results

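The chemokine CXCL12, its receptors CXCR4 and ACKR3, and DPP4, a protease that cuts CXCL12, were followed at every array probe to which the platform annotation gives one of these 4 symbols. The 4 genes, of 20046 named ones, had 8 of the 47322 probes, namely 3 for CXCR4, 1 for ACKR3, 3 for CXCL12 and 1 for DPP4. They were measured in cells labelled Jurkat, the name of a line from a T cell leukaemia, kept for 24 hours in culture with Me6TREN or with phosphate-buffered saline (PBS) as the control. The design was 1 Illumina HT12 array for either group, and both cultures grew in the same medium with fetal bovine serum. Me6TREN, a branched polyamine that chelates metals, is known for releasing blood progenitors from the marrow, and its dose is not given in the sources used here.

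CXCL12 is made by stromal and endothelial cells of bone marrow and lymphoid tissue, where it holds blood progenitors in place and guides lymphocytes. CXCR4 answers it through inhibitory G proteins, which drive migration, and is then phosphorylated, taken up with arrestins and sent to the lysosome after it is tagged with ubiquitin. ACKR3, formerly CXCR7, binds the same chemokine but works through arrestins and clears CXCL12 from the surroundings, while DPP4 (CD26), a surface protease of T cells, removes the first amino acids of CXCL12 and so inactivates it.

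With 1 array in each group no test was possible, no value has a standard deviation, and every difference below is between 2 arrays without a replicate check. Detection meant a deposited p-value under 0.01, which gives a probe's rank among the negative controls of its array. The lowest detected signal was 333.4 on the PBS array and 350.5 on the Me6TREN array, and 15363 and 13656 probes were detected, with a median of 22 beads behind a probe on both. The markers went against the T cell label of the line, so the identity of the cells is in doubt. Of 11 T cell markers, 2 (CD247 and CD28) were detected on both arrays, 5 on 1 array, and 4 (CD3E, CD5, CD7 and LCK) on neither. Both arrays detected 4 of the 5 B cell markers on the array, among them CD79A at signals of 32313 and 33455 and CD79B at 45069 and 42800. The remaining B cell marker, PAX5, was detected on neither. The summed signal of the T cell markers was 4643 on the PBS array and 3927 on the Me6TREN array, that of the B cell markers 80639 and 78576. These sums of deposited signals hold background and undetected markers, and CD79A and CD79B made up most of the B cell sum. The part of either cell type in the results below was not tested. Between bulk samples, fewer cells with a transcript and less of it per cell cannot be told apart.

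ACKR3 was the member with the clear difference: its signal was higher with Me6TREN under every scaling tried. The detected CXCR4 probes went apart from each other, the brighter one lower and the other about level as deposited. After normalization their log2 ratios were −0.55 and 0.46, both within 1.5-fold. CXCL12 and DPP4 were not detected on either array. Beside the receptors, RGS1, which shortens G protein signals of chemokine receptors, was far higher with Me6TREN. Of 13 measured genes in a list for receptor trafficking, 7 were at least 1.5-fold lower (4 to 12 under the alternatives), where 21.9% of all measured genes were. The gene lists were chosen with earlier results of these data known, so such a count is no independent support.

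Sequence was at hand for the start regions of 3 of the 4 genes, and that of CXCR4 is shown because it is the one of these 3 with detected signal. RefSeq lists 3 start sites for CXCR4 on GRCh38.p14. The 250 bases before the outermost one lie on the minus strand at chr2:136118150-136118399, with matches in capitals to the motif of the activator NRF1 (core letters CGCATGC), to the core letters of hypoxia response elements (ACGTG or GCGTG) and to a TATA box (TATAAA), each searched on both strands.

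CXCR4 upstream: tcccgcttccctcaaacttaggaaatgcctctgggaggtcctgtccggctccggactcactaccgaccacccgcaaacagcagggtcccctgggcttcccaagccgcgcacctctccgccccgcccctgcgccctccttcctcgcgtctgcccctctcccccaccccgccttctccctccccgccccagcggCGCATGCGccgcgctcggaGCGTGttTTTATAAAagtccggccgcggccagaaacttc

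The NRF1 letters were matched on both strands at overlapping places, 58 to 51 bases before the start. The single hypoxia letters, GCGTG, lay 39 to 35 bases before it, and the TATAAA letters were matched on both strands at overlapping places, 32 to 25 bases before it. Among 35116 RefSeq windows of this length, 3.39% held the NRF1 letters, 43.2% hypoxia letters and 10.7% TATAAA. The windows of CXCL12 and DPP4 held no NRF1 or TATAAA letters. The DPP4 window held ACGTG on both strands at overlapping places, and the CXCL12 window held no hypoxia letters. A match describes the letters only.

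Of the 4 genes ACKR3 had the largest ratio. Its probe, ILMN_1798360, annotated to NM_020311, had a deposited signal of 1354.9 on the PBS array (17 beads) and 3570.45 on the Me6TREN array (23 beads), with the detection p-value listed at 0 on both. Both signals lay well above the lowest detected ones, and the Me6TREN array was the higher. On the normalized log2 scale the levels were 9.82 with PBS and 11.96 with Me6TREN, a log2 ratio of 2.14 or 4.41-fold, against 2.64-fold in the deposited signals. Of 10165 named probes detected on both arrays, 114 (1.12%) had a log2 ratio at least as high. Among the 1562 of them whose mean log2 signal was within 0.5 of that of ACKR3, 12 did, and their log2 ratios scattered with a robust standard deviation of 0.65. ACKR3 was thus among the higher ratios of equally bright probes on these arrays.

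CXCR4, the signalling receptor, was covered by a bright probe, a second detected probe and an undetected one. The bright probe, ILMN_1801584, annotated to NM_003467, had a deposited signal of 5059.5 with PBS and 2485.9 with Me6TREN, each over 28 beads. The second probe, ILMN_2320888, annotated to the RefSeq transcript NM_001008540, had 2041.6 (21 beads) and 1847.8 (26 beads). As deposited, the bright probe was 2.04-fold lower with Me6TREN and the second 1.10-fold lower, so both signals were lower before normalization, by different amounts. The third probe, ILMN_2246410, also annotated to NM_001008540, had 269.97 and 284.96, under the detection limit of each array. Its detection p-values were 0.204 and 0.229, and no ratio is given for it.

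**Figure D1:**
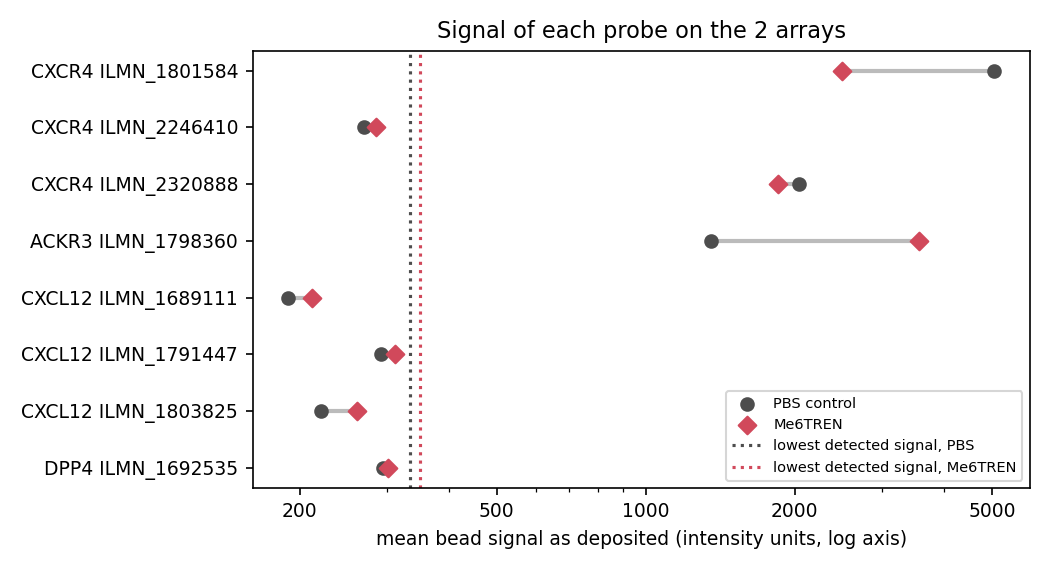
Deposited mean bead signal (intensity units, log axis) of each of the 8 probes on the PBS array (circles) and the Me6TREN array (diamonds), 1 array a group, with the lowest detected signal of each array as dotted lines. The ACKR3 probe and 2 of the 3 CXCR4 probes lie right of both lines, and the 5 other probes lie left of them.

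After normalization the bright CXCR4 probe had log2 levels of 12.02 with PBS and 11.47 with Me6TREN, a log2 ratio of −0.55. The second probe had 10.54 and 11.00, a log2 ratio of 0.46. Neither reached 1.5-fold, where 17.8% of all probes detected on both arrays were 1.5-fold higher and 21.1% lower. In all, 1 of the 3 detected probes of these genes was at least 2-fold higher, where 7.33% of all probes detected on both arrays were, and none was 2-fold lower, where 9.13% were. The 2 CXCR4 probes lay on opposite sides of the bulk of probes, with 22.4% of all detected probes at or below the bright one and 22.8% at or above the second. Among probes of like signal, log2 ratios had a robust standard deviation of 0.59 for the bright probe and 0.65 for the second, so either ratio was smaller than the scatter of such probes.

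**Figure D2:**
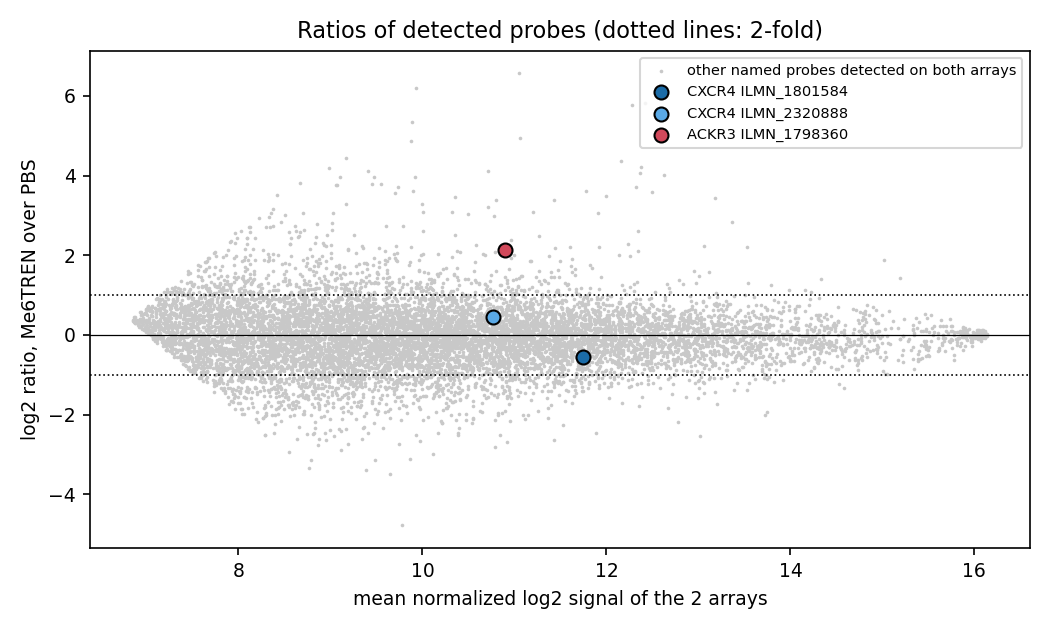
Log2 ratio of Me6TREN over PBS against the mean normalized log2 signal of the 2 arrays for the 10165 named probes detected on both (grey), with the 2 detected CXCR4 probes and the ACKR3 probe in colour and 2-fold as dotted lines. ACKR3, at 2.14, lies above the 2-fold line, and the CXCR4 probes, at −0.55 and 0.46, lie between the lines.

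The gap between the 2 CXCR4 probes was 1.01 on the log2 scale. Over 1912 genes with 2 or more probes detected on both arrays, the median gap between the highest and the lowest probe was 0.36. In 270 of them (14.1%) the gap was at least that of CXCR4, and in 32.0% the probes took opposite signs. The gap of CXCR4 was therefore wide but not rare among these genes. They include genes with more than 2 detected probes, whose gaps tend to be wider, and genes with 2 were not counted apart. Whether the 2 probes read different CXCR4 transcripts was not tested, since probe sequences were not used here, and no single CXCR4 direction is given for that reason.

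**Figure D3:**
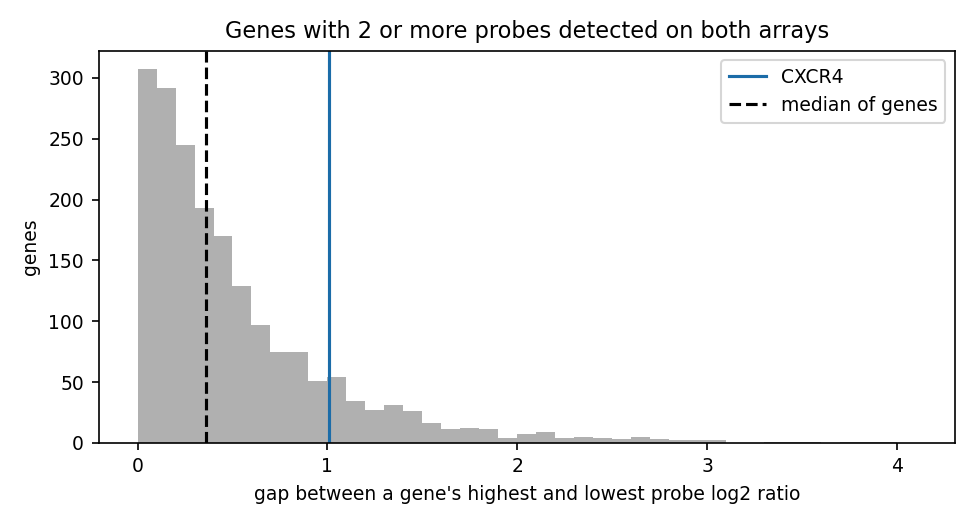
Number of genes (vertical axis) by the gap between the highest and the lowest log2 ratio of their probes (horizontal axis) for the 1912 genes with 2 or more probes detected on both arrays. The CXCR4 gap of 1.01 (solid line) lies right of the median of 0.36 (dashed line), in the upper 14.1% of genes.

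The sign of the second CXCR4 probe depended on how the arrays were scaled. Quantile normalization gave the detected probes a median log2 ratio of −0.03, while median centring over all probes gave −0.55 and the authors' series matrix values −0.46. The share of higher probes among those past 2-fold moved with it, from 44.5% (745 higher and 928 lower) to 8.45% (257 and 2786) and 11.4% (318 and 2473). Median centring over the probes detected on both arrays gave 55.4% (1005 and 808). Over these 4 and 3 further settings the second CXCR4 probe ran from −0.14 to 0.54 and the bright one from −1.07 to −0.39, while ACKR3 ran from 1.60 to 2.28.

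Set against the median of all detected probes under the same setting, the 3 values hardly moved. The bright CXCR4 probe lay 0.50 to 0.52 below that median, the second probe 0.41 to 0.49 above it and ACKR3 1.91 to 2.17 above it. ACKR3 exceeded the bright CXCR4 probe by 2.41 to 2.69 on the log2 scale and the second by 1.49 to 1.75. A constant shift of an array cannot alter such a gap, so the 2 median centrings gave the same gaps by construction. Both gaps kept their sign in the 7 settings.

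**Figure D4:**
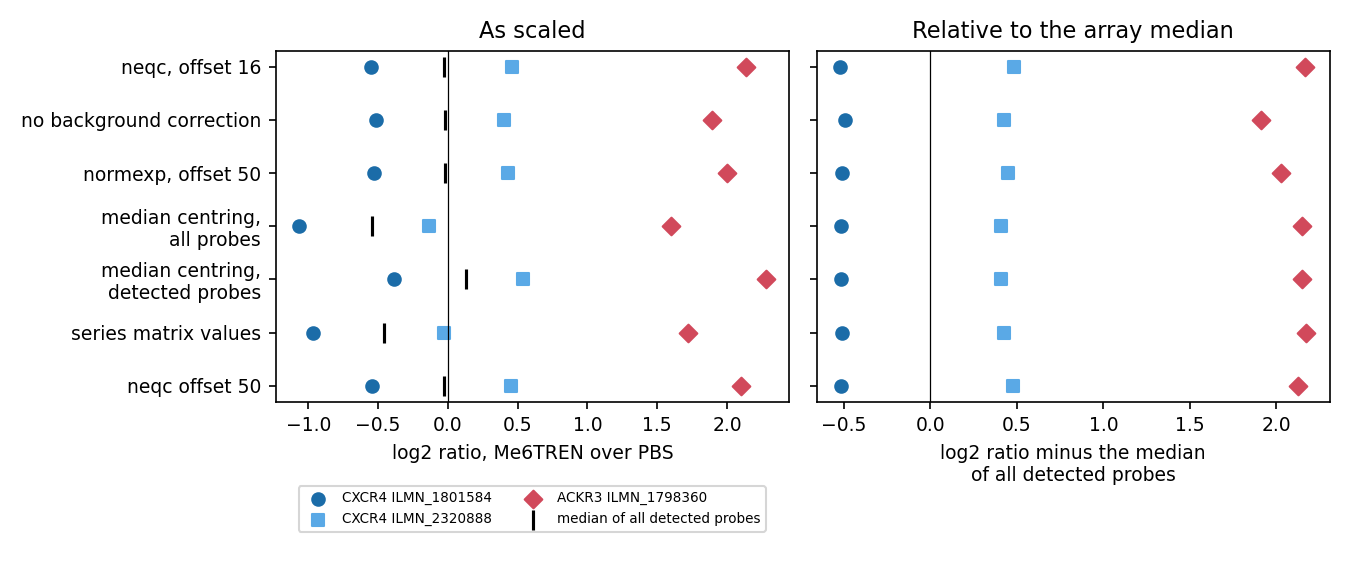
Log2 ratios of Me6TREN over PBS for the 3 detected probes under the 7 settings of background correction and normalization (rows), as scaled (left, with the median of all detected probes as a bar) and after that median is taken off (right). On the left the second CXCR4 probe lies on both sides of 0, from −0.14 to 0.54, and on the right the 3 probes keep nearly fixed places.

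CXCL12, the ligand, was below detection at each of its 3 probes. Probe ILMN_1689111 had deposited signals of 189.5 with PBS and 211.6 with Me6TREN, probe ILMN_1803825 had 220.8 and 261.3, and probe ILMN_1791447 had 291.5 and 312.2. The last came nearest to the limits, with detection p-values of 0.0766 and 0.0688. All were also undetected at a threshold of 0.05, so a difference in CXCL12 was not detectable at these signals, which do not show that its RNA is absent. Of 6 stromal and 4 endothelial markers, classes of cells known to make CXCL12, none was detected on either array.

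DPP4 was also below detection. Its 1 probe, ILMN_1692535, had a deposited signal of 295.3 with PBS (30 beads) and 301.2 with Me6TREN (23 beads), with detection p-values of 0.0662 and 0.108. The 2 signals lay close together and under both limits. Other enzymes of the DPP4 family were measured: the cytosolic proteases DPP8 and DPP9 had deposited signals of 1030.6 and 1411.2 with PBS and 597.6 and 801.9 with Me6TREN, at log2 ratios of −0.43 and −0.36. Lysosomal DPP7 had 4469.8 and 4260.6 and a log2 ratio of 0.40. This ratio was −0.04 with median centring over all probes and 0.64 with that over the probes detected on both arrays. The other detected DPP7 probes ran from −0.42 to 0.32. The related surface protease FAP was not detected.

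Of the other proteases known to cut CXCL12, MMP9, a gelatinase tied to the release of progenitor cells, had deposited signals of 533.1 with PBS and 394.6 with Me6TREN. Its log2 ratio was −0.36, with −0.96 to −0.18 over the 7 scalings. CPM, also on the protease list, was detected on both arrays near the limits, at 371.6 with PBS and 364.7 with Me6TREN. Its log2 ratio was 0.25, with −0.20 to 0.47 over the scalings. MMP2, MMP14, the neutrophil proteases CTSG and ELANE, and the cathepsins CTSK and CTSS were not detected. Of the 14 proteases listed, 6 were detected on at least 1 array and none of them was 1.5-fold higher or lower. Over all 9410 genes detected on 1 array or both, 16.5% were higher by that measure and 21.9% lower. With median centring over all probes and with the series matrix values 4 proteases were lower. With median centring over the probes detected on both arrays 1 protease, DPP7, was higher, at 0.64 on the log2 scale.

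Genes that act on the receptors' signal were described by lists, each gene by its brightest detected probe. A gene detected on 1 array only enters at the bound that the detection limit allows, written as at least N-fold. Of 19 genes for G protein coupling and its shut-off, 16 were measured, 4 were at least 1.5-fold higher with Me6TREN and none was lower, where 16.5% and 21.9% of all measured genes were. With median centring over all probes and with the series matrix values 2 were higher and 3 lower. The median log2 ratio was 0.07, against −0.02 over all measured genes.

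RGS1, a GTPase-activating protein that ends G protein signals of chemokine receptors in lymphocytes, stood out in that list. Its deposited signal was 1474.7 with PBS and 11556.9 with Me6TREN, a log2 ratio of 3.60 after normalization (3.22 to 3.90 over the 7 scalings). The G protein subunit GNB2 had 761.9 and 1075.2, with a log2 ratio of 1.34 (0.68 to 1.35). GNAI1, an inhibitory alpha subunit, was detected with Me6TREN alone, at 379.8 against 254.3. Its bound was at least 1.76-fold higher on the normalized scale, a log2 value of 0.82 that ran from 0.30 to 1.06 over the scalings and so fell under 1.5-fold in some. RGS16, a relative of RGS1, was at 0.60 on the log2 scale but at −0.09 when arrays were centred on the median of all probes. The main lymphocyte alpha subunit GNAI2 (6747.6 and 4031.1, log2 ratio −0.34) and the receptor kinase GRK2 (6336.5 and 4417.9, log2 ratio −0.12) lay within 1.5-fold. GNAI2 passed 1.5-fold lower with median centring over all probes (−0.74) and with the series matrix values (−0.64). GRK2 ran from −0.51 to 0.17 over the scalings.

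Of 14 genes for the trafficking of the receptor (ubiquitin tagging, endosomal sorting, Rab proteins, and the surface proteins PTPRC and SDC4), 13 were measured. With Me6TREN 7 of them were at least 1.5-fold lower and none was higher, where 21.9% of all measured genes were lower. The list median was −0.69. Under the alternatives 4 to 12 members were lower and up to 1 higher, and the list median lay 0.40 to 0.73 below that of all genes. ITCH, the ligase that puts ubiquitin on CXCR4, had a deposited signal of 941.4 with PBS and 437.9 with Me6TREN, a log2 ratio of −1.17 (−1.82 to −0.72 over the 7 scalings). VPS4B, an ATPase of the sorting machinery at late endosomes, had 3384.5 and 1021.3, a log2 ratio of −1.35 (−1.98 to −1.18). USP14, which takes ubiquitin off CXCR4, had a log2 ratio of −1.06 (−1.75 to −0.77). The endosomal sorting protein STAM2 had −0.83 (−1.48 to −0.48) and so fell under 1.5-fold in some scalings. PTPRC, the surface phosphatase CD45 and no sorting protein, was also among the 7, at −0.81 at its brightest probe (−1.47 to −0.50). Its other detected probes ran from −0.62 to −0.21. The members of this list thus act both for and against breakdown of the receptor, and the list was chosen with earlier results of these data known.

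Of 31 genes of downstream signalling 21 were measured, 6 were at least 1.5-fold lower and none was higher, with a median log2 ratio of −0.03. These were 28.6% of the list, against 21.9% of all measured genes, and under the alternatives 4 to 9 were lower and up to 2 higher. PIK3CG, the phosphoinositide 3-kinase subunit driven by G proteins, had a deposited signal of 4038.7 with PBS and 759.7 with Me6TREN, a log2 ratio of −2.20 (−2.84 to −1.89 over the scalings). PIK3R1, the regulatory subunit of the class driven by tyrosine kinases, was detected with PBS alone, at 983.8 against 271.1. Its bound was at least 4.69-fold lower on the normalized scale, a log2 value of −2.23 (−2.83 to −1.21 over the scalings). The kinase AKT1, which acts next, had a log2 ratio of −1.03, and VAV1, an exchange factor for Rac, −0.89. The G protein-driven and lymphocyte migration genes RAC2, RHOA, DOCK2 and ELMO1 lay within 1.5-fold, at log2 ratios from −0.42 to 0.37. With median centring over the probes detected on both arrays, RHOA and ELMO1 reached 0.60, just past 1.5-fold higher. The kinase ROCK1 was among the 6 lower genes, detected with PBS alone at 489.4 against 273.4. Its bound was −0.75 on the log2 scale (−1.25 to −0.31 over the scalings), and that of its other detected probe was 0.

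Among other ligands, partners and atypical receptors, 5 of 11 were measured. MIF, another ligand of CXCR4, had a deposited signal of 37481.6 with PBS and 58592.1 with Me6TREN, a log2 ratio of 0.49 (0.49 to 1.37). CD74, the partner through which MIF also signals, had 57349.9 and 58333.7, a log2 ratio of −0.09 that turned to as much as 0.74 under other scalings. Both genes lay near the top of the signal scale, whose highest signals were 73762.5 with PBS and 74593.7 with Me6TREN. HMGB1, which binds CXCL12, had a log2 ratio of −1.01 at its brightest probe and −0.18 at another. ACKR4, an atypical receptor of other chemokines, was detected with PBS alone, at 572.1 against 297.8. Its bound was at least 2.17-fold lower on the normalized scale, a log2 value of −1.12 that ran from −1.66 to −0.51 and so fell under 1.5-fold in some scalings. CXCL11, the other chemokine of ACKR3, was detected with PBS alone at 379.3, and ACKR1 and ACKR2 were not detected.

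Of 14 transcription regulators known for CXCR4 or ACKR3, 9 were measured, 1 was at least 1.5-fold higher and 2 lower. These shares, 11.1% and 22.2%, lay near or under the 16.5% and 21.9% of all measured genes. With median centring over all probes 6 were lower and none higher. With median centring over the probes detected on both arrays 1 was lower and 2 were higher. HIF1A, the hypoxia factor that raises CXCR4 in other cells, had deposited signals of 1227.0 and 1431.6 and a log2 ratio of 0.93 (0.29 to 0.97). VHL, which marks HIF proteins for breakdown, had 4483.2 and 1719.9 and a log2 ratio of −0.94 (−1.49 to −0.81). The other detected VHL probes ran from −0.93 to −0.47. NFKB1, a subunit of NF-kB, had a log2 ratio of −0.83 (−1.17 to −0.49), and YY1, a repressor of CXCR4, had 0.33 (0.02 to 0.70). Whether either gene passed 1.5-fold thus depended on the scaling. The NRF1 probe, whose motif letters stand in the CXCR4 sequence, was not detected, and HIC1, a repressor of ACKR3, was not detected either.

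**Figure D5:**
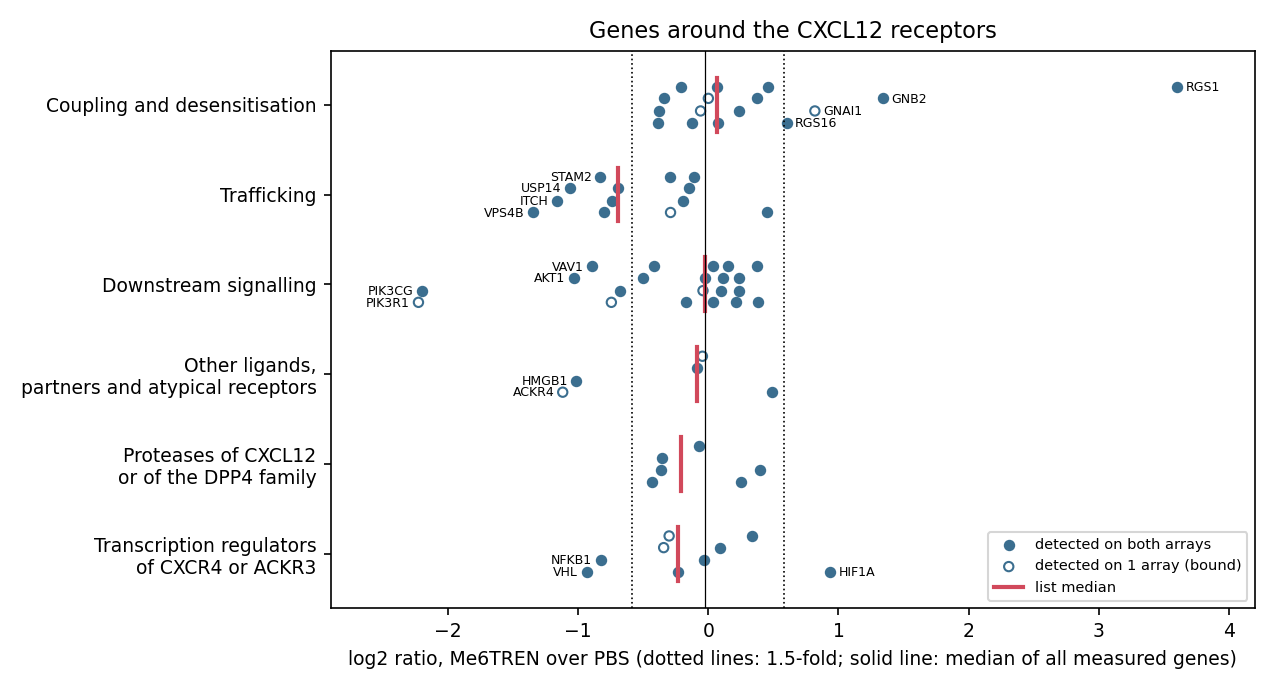
Log2 ratios of Me6TREN over PBS for the measured genes of the 6 lists (rows), with genes detected on both arrays as filled points, genes detected on 1 array as open points at their bound, and list medians as red bars. RGS1 lies far right at 3.60, PIK3CG and PIK3R1 far left, and 7 of the 13 measured trafficking genes lie left of the 1.5-fold line.

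With 2 arrays the pattern of a probe is a single ratio, and likeness was taken as the nearest log2 ratio among probes whose mean log2 signal was within 0.5. For the bright CXCR4 probe the nearest genes were HACL1 (log2 ratio −0.551), PSMD1 (−0.550) and ARCN1 (−0.549). For ACKR3 they were PELI1 (2.08), NOCT (2.07) and FKBP1A (2.03). The deposited signals of PELI1 were 1293.7 with PBS and 3222.1 with Me6TREN. The ACKR3 neighbours differed from it by 0.06 to 0.11, farther than those of CXCR4, since few probes of that signal had so high a ratio.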

How the data were processed

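RNA of the 2 samples was measured on 1 array each, and groups came from the treatment labels. The deposited table holds, per the file headers, the mean bead signal of each probe as a linear intensity, its detection p-value and its number of beads. The detection p-values of each block followed that block's signal without exception. The authors' series matrix holds intensities that are a linear function of the same signals (factors 0.951 and 1.05, medians 30.9 and 28.8); the sources used here do not name its software.

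Signals were corrected with limma 3.58.1 in R 4.3.3 by neqc (background from the detection p-values, offset 16, quantile normalization, log2). The platform annotation named 30113 probes with 1 symbol, 8 with several, and 17209 probes have no symbol of their own here. RefSeq (GRCh38.p14) matched 30074 by Entrez ID, and promoter windows matched 3 of the 4 genes. The correction and normalization were run on simulated arrays in which as many probes were raised as lowered. That simulation cannot show how the scalings behave when the differences are unbalanced. Genes named from lists are up to 4 past 1.5-fold per list with the largest ratios, plus MMP9, MIF and CD74; further list genes are given as examples chosen after their values were seen. The members and lists were chosen with earlier results of these data known. Alternatives were no background correction, normexp, an offset of 50, 2 kinds of median centring (that over detected probes was added after seeing the data), series matrix values floored at 99.9, other detection filters and the mean of a gene's probes. No test was made. The number of arrays limits the precision.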

Additional observations from a re-analysis of the deposited data

How the results depend on the processing

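The ratio of ACKR3 kept its direction and stayed past 2-fold under all alternatives (1.60 to 2.28 on the log2 scale). The bright CXCR4 probe stayed negative and reached 2-fold only with median centring over all probes, at −1.07. The second CXCR4 probe turned negative with that centring (−0.14) and with the series matrix values (−0.031); both settings also set the median of all detected probes below −0.4, at −0.55 and −0.46. CXCL12 and DPP4 had 0 detected probes at thresholds of 0.01 and 0.05, and with no filter on detection the 5 undetected probes gave log2 ratios of −0.03 to 0.31, but 0.59 to 1.03 with median centring over detected probes. The number of detected probes at least 2-fold higher, 745, was 365 with no background correction, 473 with normexp, 257 with median centring over all probes, 318 with the series matrix values and 1257 with no filter. The number at least 2-fold lower, 928, was 473, 2786, 2473 and 2032 with no background correction, that centring, the series matrix values and no filter; the cause was not tested. In the gene lists, the number at least 1.5-fold lower ran from 4 to 12 of the trafficking genes (7 as reported), 4 to 9 of the downstream genes (6), 1 to 6 of the regulators (2), 1 to 4 of the other ligands and receptors (2), 0 to 4 of the proteases (0) and 0 to 3 of the coupling genes (0), of which 2 to 5 were higher (4). No paired analysis was possible because each group has 1 sample and the labels carry no replicate numbers. The probes of CXCL12 and DPP4 and the dim CXCR4 probe lay under the detection limits of both arrays, which bounds what can be said of them. The dim CXCR4 probe had 15 beads on the PBS array and 22 on the Me6TREN array, where the median of each array was 22. The part of bead numbers was not tested.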
